A study of Mus musculus with 147 samples.

Results

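The data described here are 40 genes of the smooth muscle contractile apparatus and the actin cytoskeleton, chosen by symbol from the 35438 genes measured in single renin-lineage cells of the mouse kidney. They were split into 20 late contractile genes, which mark differentiated smooth muscle, and 20 general actin regulators, which most cell types use. All 40 symbols were found in the deposited tables. No value of these cells entered the rule, although earlier results of the same data were known when the list was drawn up.

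Renin cells are specialised mural cells at the entrance of the glomerulus, and they derive from the same lineage as the smooth muscle of the afferent arteriole. In smooth muscle, actin filaments (Acta2) slide against myosin filaments (Myh11), a motion that is switched on when myosin light chain kinase (Mylk) phosphorylates the regulatory light chain (Myl9) and switched off by myosin phosphatase. Many of the genes involved are driven by serum response factor, which binds a short DNA element named the CArG box.

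The study asked how loss of the renin gene changes the cells that would have made renin. WT renin cells came from adult Ren1c+/+ mice and Renin-null cells from adult Ren1c-/- mice. On a C57BL/6 background, both had the reporter Ren1c-YFP, which puts yellow fluorescent protein under the control of renin promoter DNA. Cells of the kidney cortex were sorted on that colour. The sort therefore depends on renin promoter activity and not on a smooth muscle marker. Cells were captured in wells of the Fluidigm C1 System, and their RNA was copied into cDNA over its full length with SMART-Seq v4, a chemistry without molecular identifiers. By the methods, the 51 WT wells trace to 4 mice and 1 capture and the 96 Renin-null wells to 12 mice and 4 captures, with the null wells sequenced as libraries YFP1 and YFP2 of 48 wells each. Mice with the null allele received saline injections in the first days of life. Wells are not replicates and no label ties a well to a mouse, so each genotype counts as 1 sample and no test between them was made. Genotype, capture and sequencing library cannot be told apart.

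The deposited values are estimated counts, used here after rounding. WT wells held 26401 to 17124854 counts (median 1525972) and Renin-null wells held 3628 to 14505243 (median 4107950). The labels were first checked on the deleted gene. Ren1, which encodes renin, had 538 to 4294010 counts in every WT well (median 23707) and 54 counts in all 96 Renin-null wells together, with a highest well of 17. The genotypes did not overlap in any well. In the median WT well 60.4% of counts fell on the 13 mitochondrially encoded genes, and in the median null well 12.4%. A total of 15 WT and 57 Renin-null wells met 3 limits (100000 counts or more, 1000 genes or more, and a mitochondrial share of 25% or less), and these are called wells passing the filter. They held 95.8% of the late contractile counts of the WT wells and 95.6% of those of the null wells.

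The first readout for each gene is the level in CPM (counts per 1000000 counts) after summing the wells of a genotype, with the log2 ratio of these sums, Renin-null over WT, and its 95% interval. The interval is an exact conditional one and covers counting error only. The second is the CPM in single wells. A ratio of at least 2-fold is used as the mark of a large difference.

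Promoter sequence is shown first, because the CArG box is the element best known in this group of genes. The promoter table holds windows of 250 bases before to 50 bases after the start of each gene (RefSeq, GRCm38.p6), and 17 late and 19 general genes have 1 or more windows in it. Tagln, Myh11, Actg2 and Rock1 were not searched. A full CArG box, CC and GG around 6 bases of A or T, was searched; it reads the same way on both strands. It occurred in 1.63% of all 32851 windows, in 1 of the 22 windows of late genes (Myl9) and in 3 of the 23 windows of general genes (Vcl, Cnn2 and Myl6). With 1 of the 6 inner bases free to be G or C, 9.98% of all windows matched, as did 3 windows of late genes (Acta2, Myl9 and Pdlim3) and 5 of general genes (Vcl, Cnn2, Myl6 and both windows of Tpm3). The stretches around the matches are printed in the direction of the gene, with the matching bases in capitals. They are shown for Acta2 and Myl9, which each hold a pair of matches, and for the general genes with a full box.
Acta2, chr19:34255383-34255472, minus strand, 99 to 10 bases before the start: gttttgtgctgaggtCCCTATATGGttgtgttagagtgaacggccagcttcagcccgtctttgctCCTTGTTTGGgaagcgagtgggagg
Myl9, chr2:156775288-156775389, plus strand, 176 to 75 bases before the start: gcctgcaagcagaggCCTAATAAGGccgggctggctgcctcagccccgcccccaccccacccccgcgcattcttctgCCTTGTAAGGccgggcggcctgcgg
Vcl, chr14:20929156-20929195, plus strand, 242 to 203 bases before the start: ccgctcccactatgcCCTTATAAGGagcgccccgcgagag
Cnn2, chr10:79988529-79988568, plus strand, 71 to 32 bases before the start: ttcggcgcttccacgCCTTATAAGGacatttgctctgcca
Myl6, chr10:128493035-128493074, minus strand, 65 to 26 bases before the start: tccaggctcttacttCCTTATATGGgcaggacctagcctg
The letters match in both lists, and the log2 ratios of the genes that hold them ranged from -1.43 for Pdlim3 to 2.94 for Vcl. A match describes the letters and does not show that a factor is bound there.

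Summed over wells, the order of the genotypes in the share of contractile counts depended on which counts made up the total. Of all counts, the 20 late genes together held 1.98% in WT cells and 2.13% in Renin-null cells, with 2.03% in YFP1 and 2.22% in YFP2. The 20 general genes held 1.39% and 1.45%, with 1.34% in YFP1 and 1.55% in YFP2. On this total the gap between the genotypes was smaller than that between the null libraries for both lists. Without mitochondrial genes and Ren1 the order turned, with late genes at 2.82% in WT, 2.31% in YFP1 and 2.46% in YFP2, and general genes at 1.98%, 1.52% and 1.72%. On that total WT lay above both null libraries by more than these differed from each other. In wells passing the filter, of all counts, late genes held 2.50% for WT against 2.29% for Renin-null, and general genes 1.76% against 1.58%. Late genes made up 58.8% of the counts of both lists in WT cells and 59.5% in Renin-null cells. The median log2 ratio was 0.22 over the late genes and 0.05 over the general genes, beside 1.17 over all 18720 genes with a ratio and 0.86 over the 8747 of them with at least 10 CPM in a genotype.

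Of the 40 genes, 7 (17.5%) were at least 2-fold higher in Renin-null cells, whereas 52.4% of all genes were, and 47.8% of those with at least 10 CPM in a genotype. These were Actg2, Des, Synpo2 and Csrp1 among the late genes and Vcl, Cnn3 and Tpm4 among the general ones. A further 3 (7.5%) were at least 2-fold lower, Pdlim3, Myh10 and Rock2. The background was 18.5% of all genes and 20.7% of those with at least 10 CPM. With the wells weighted equally, as the mean over wells of CPM, 16 members were at least 2-fold higher (background 61.2%) and 1 was lower (background 14.7%). Among wells passing the filter, 6 were at least 2-fold higher (background 51.6%) and 3 were lower (background 20.1%). Scaled by TMM factors, which lower the median log2 ratio of all genes to 0.47, 5 members were at least 2-fold higher (background 43.1%) and 13 lower (background 27.2%). With median-of-ratios size factors 4 were higher (background 41.4%) and 14 lower (background 29.7%). With SCTransform-corrected counts 27 were higher (background 64.1%) and 1 lower (background 12.8%). These 27 were 16 of the 19 late genes with a value and 11 of the 20 general genes. As the difference of mean log2(CPM + 1) over wells, 30 members were at least 1 higher on the log2 scale (background 9.03%) and 1 was lower (background 1.9%). The members thus stood below the background for higher genes by the sums and above it by this last measure, whose background was 19.2% among genes with at least 10 CPM. With SCTransform the late genes (84.2% higher) stood above the background of 64.1% and the general genes (55%) below it. Between the null libraries alone, 15 of the 40 genes differed at least 2-fold in either direction, where 66.3% of all genes did.

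**Figure D1:**
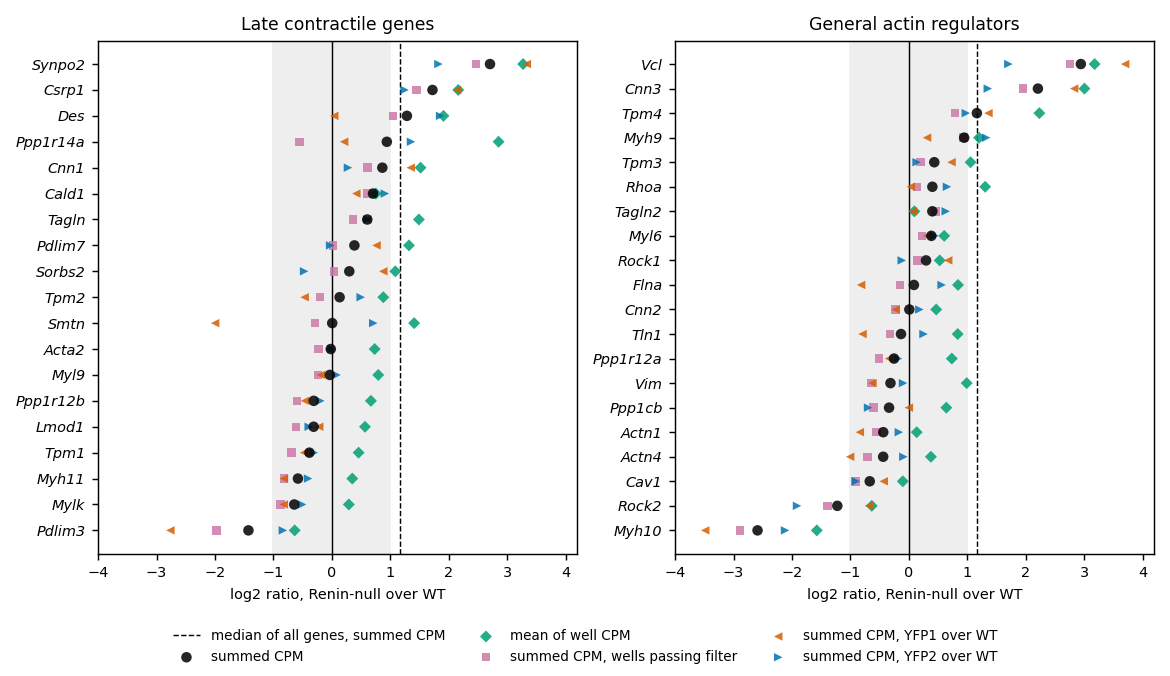
Log2 ratio, Renin-null over WT, for 19 late contractile genes (left; Actg2 is not drawn, having no WT count) and 20 general actin regulators (right), sorted by the ratio of summed CPM. Circles are summed CPM, diamonds the mean over wells of CPM, squares summed CPM of wells passing the filter, and triangles each null library against WT; the grey band spans less than 2-fold and the dashed line is the median of all genes, 1.17. Most circles lie inside the band and left of the dashed line, and most diamonds lie right of their circle.

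Among the filament proteins of the late list, Acta2, the smooth muscle alpha-actin, had 4349 CPM in WT cells and 4244 and 4331 CPM in YFP1 and YFP2 after summing. In single wells its level ran from 1.30 to 17471 CPM in WT (median 143), from 0 to 14276 CPM in YFP1 (median 796) and from 7.20 to 22599 CPM in YFP2 (median 1671). The wells of the genotypes overlapped over nearly their whole range, and the log2 ratio of the sums was -0.02. Actg2, the gamma-actin of visceral smooth muscle, had no count in any of the 51 WT wells, where the limit of 3 counts allows up to 5.88% of wells or 0.0152 CPM. In Renin-null cells it had 14.1 CPM, at least 928-fold above that limit, but 99.7% of these counts lay in 1 well of YFP2. Des encodes desmin, an intermediate filament of muscle. Its summed level was 107 CPM in WT, 110 CPM in YFP1 and 385 CPM in YFP2, so that the ratio to WT was 0.04 in one library and 1.85 in the other. The highest wells held 40.1% of the WT and 42.2% of the null counts of Des.

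The thin-filament proteins of the late list stabilise actin or tune its contact with myosin. Tagln (transgelin) had summed levels of 3473 CPM in WT, 5276 CPM in YFP1 and 5288 CPM in YFP2. Single wells had 4.55 to 8507 CPM in WT (median 65.3) and 6.33 to 20466 CPM in Renin-null cells (median 2618), so that the ranges overlapped except at the top, where null wells reached higher. Its ratio of 0.61 (interval 0.60 to 0.61) was almost equal in the null libraries. Cald1 (caldesmon) had 1412 and 2301 CPM, a ratio of 0.70. The share of wells at 100 CPM or more went the other way, at 92.2% of WT and 78.1% of Renin-null wells. By the mean over wells of CPM, Cald1 was higher in Renin-null cells, as by the sums. Cnn1 (calponin 1) had 184 CPM in WT, 470 CPM in YFP1 and 223 CPM in YFP2. The median WT well held 1.90 CPM of it and the median null well 6.29 CPM, so most of its signal came from a minority of wells in both. The tropomyosins Tpm1 and Tpm2, which lie along the actin filament, differed by less than 2-fold, with ratios of -0.38 and 0.13. For Tpm2 the YFP1 level was below and the YFP2 level above that of WT. It held 28.6% of the summed tropomyosin counts in WT, 19.3% in YFP1 and 36.2% in YFP2. Lmod1 (leiomodin 1, an actin nucleator) and Smtn (smoothelin) had ratios of -0.31 and 0.01. For Smtn the libraries stood apart, at 42.7 CPM in YFP1 and 278 CPM in YFP2, with 64.3% of the WT counts in 1 well.

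By the sums, the motor, its kinase and its regulatory light chain were not higher in Renin-null cells. Myh11, the smooth muscle myosin heavy chain, had 2449 CPM in WT, 1387 CPM in YFP1 and 1846 CPM in YFP2, a log2 ratio of -0.58 (interval -0.59 to -0.58). In single wells it ran from 1.25 to 10623 CPM in WT (median 54.9) and from 0 to 8568 CPM in Renin-null cells (median 452). The median well was thus higher in Renin-null cells while the sum was lower. Mylk, the kinase that starts contraction, had 1620 and 1037 CPM, a ratio of -0.64, and its target Myl9 had 2187 and 2133 CPM, a ratio of -0.04. At 100 CPM or more, Mylk was seen in 29.4% of WT and 57.3% of Renin-null wells, and Myl9 in 37.3% and 64.6%. Among wells passing the filter these shares were 86.7% and 80.7% for Mylk and 93.3% and 78.9% for Myl9. Ppp1r12b, a targeting subunit of myosin phosphatase, had 379 and 305 CPM, a ratio of -0.31. Ppp1r14a (CPI-17), an inhibitor of that phosphatase, was scarce, at 4.98 and 9.56 CPM, with 95.5% of the WT counts in 1 well.

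Late genes of the Z-line and of dense bodies, which anchor actin filaments, included large ratios in both directions. Synpo2 (synaptopodin 2) had 69.03 CPM in WT, 697 CPM in YFP1 and 244 CPM in YFP2, a ratio of 2.71 (interval 2.68 to 2.73). A single well held 94.6% of the WT counts, and without the highest well of each genotype the ratio was 5.79. Csrp1 (a LIM protein) had 25.9 and 85.4 CPM, a ratio of 1.72, with 77.1% of the WT counts in 1 well. Pdlim3 (a PDZ and LIM protein) went the other way. It had 441 CPM in WT, 64.9 CPM in YFP1 and 246 CPM in YFP2, a ratio of -1.43 (interval -1.44 to -1.41). Its relative Pdlim7 and the adaptor Sorbs2 had ratios of 0.39 and 0.30, and in both the YFP1 level was above and the YFP2 level below that of WT.

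**Figure D2:**
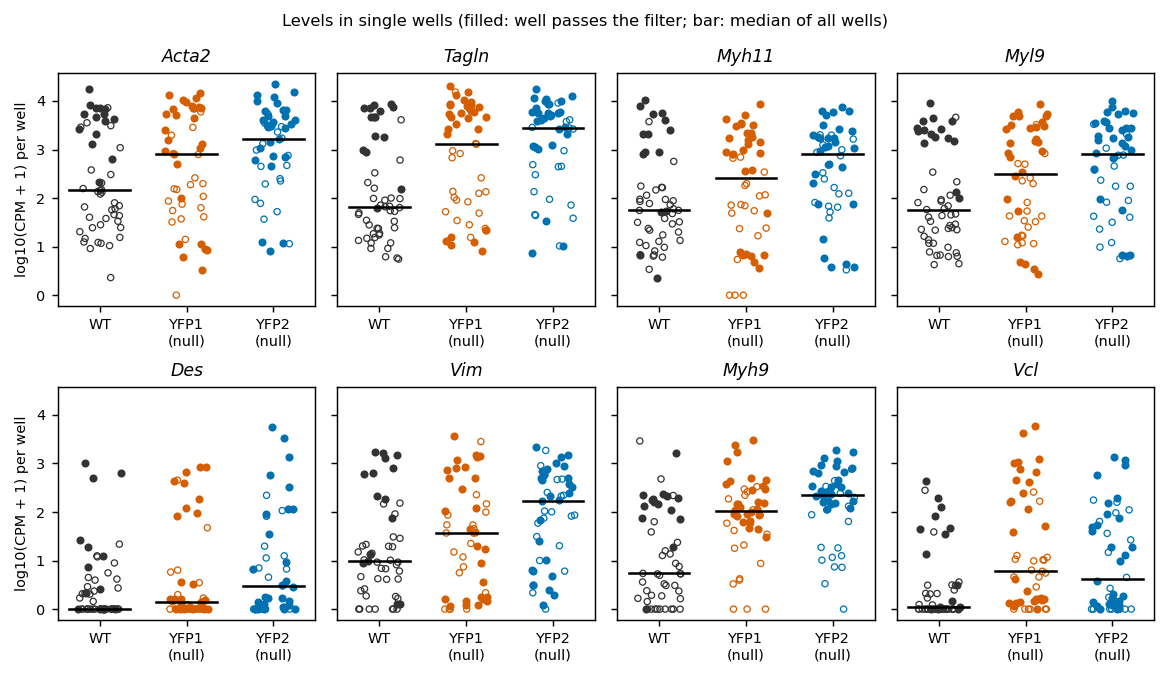
Levels of 8 members in single wells, as log10(CPM + 1), for 51 WT wells and 48 wells of each Renin-null library; filled points are wells passing the filter and bars are medians of all wells. For Acta2, Tagln, Myh11 and Myl9 the filled points of all libraries lie mostly above the open points, which are most frequent in WT, and the highest Tagln wells are Renin-null (20466 CPM, against 8507 CPM in WT). Some filled null wells, and for Myh11 also 2 filled WT wells, lie below about 10 CPM.

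Of the general actin regulators, those that link filaments to the membrane included the largest ratio. Vcl (vinculin, which ties integrin adhesions to actin) had 49.0 CPM in WT, 637 CPM in YFP1 and 159 CPM in YFP2, a log2 ratio of 2.94 (interval 2.91 to 2.97). Its wells held 0 to 443 CPM in WT (median 0.0835) and 0 to 5839 CPM in Renin-null cells (median 4.77), so that the WT wells lay within the range of the null wells. Its partners in adhesions did not share that size of difference: Tln1 (talin 1) had a ratio of -0.14, and the alpha-actinins Actn1 and Actn4, which cross-link filaments, both had -0.44. Flna (filamin A, another cross-linker) had 2639 and 2799 CPM and differed between the libraries, at 1496 CPM in YFP1 and 3887 CPM in YFP2. Cav1 (caveolin 1, of membrane caveolae) had 580 and 364 CPM, a ratio of -0.67, and Vim (vimentin) had 435 and 350 CPM, a ratio of -0.32.

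The general forms of contractile families gave mixed values. Cnn3 (calponin 3) had 72.1 CPM in WT, 511 CPM in YFP1 and 184 CPM in YFP2, a ratio of 2.21 (interval 2.18 to 2.23), while Cnn2 had 436 and 438 CPM. Tpm4 had 129 and 288 CPM, a ratio of 1.16, and Tpm3 had 834 and 1126 CPM, a ratio of 0.43. Tpm3-rs7, a near-identical copy in the table, had 0.207 and 0.519 CPM. Myh9, the heavy chain of nonmuscle myosin IIA, had 196 CPM in WT, 243 CPM in YFP1 and 490 CPM in YFP2, a ratio of 0.95. The median WT well held 4.44 CPM and the median null well 154 CPM, and 160 and 250 CPM among wells passing the filter. Myh10, nonmuscle myosin IIB, was lower, at 112 CPM in WT, 9.96 CPM in YFP1 and 25.7 CPM in YFP2, a ratio of -2.59, but 74.01% of its WT counts came from 1 well and its median well was at 0 in both genotypes. Tagln2 and the essential light chain Myl6 had ratios of 0.40 and 0.38.

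Regulators upstream of the motor completed the list. Rhoa, the small GTPase that restrains myosin phosphatase through the kinases Rock1 and Rock2, had 261 and 344 CPM, a ratio of 0.40. Rock1 had 452 and 554 CPM, a ratio of 0.29, with the YFP1 level above and the YFP2 level below that of WT. Rock2 had 421 CPM in WT, 262 CPM in YFP1 and 112 CPM in YFP2, a ratio of -1.23 (interval -1.24 to -1.21). The phosphatase subunits Ppp1r12a and Ppp1cb had ratios of -0.26 and -0.34.

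Per kilobase of transcript, which allows levels of different genes to be compared, the same genes led in both genotypes. Myl6, Tagln, Acta2, Myl9 and Ppp1r12a had 2809, 2177, 2137, 1939 and 857 CPM per kilobase in WT cells, in that order. In Renin-null cells they had 3664, 3312, 2109, 1891 and 718 CPM per kilobase, in the same order. Actg2 and Ppp1r14a were among the 3 lowest in both.

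Within families, the balance between smooth muscle and general forms was given as the share of the family's summed counts, which does not correct for length. Myh11 held 88.8% of the counts of Myh11, Myh9 and Myh10 in WT cells, 84.6% in YFP1 and 78.2% in YFP2, while Myh9 held 7.12%, 14.8% and 20.8%. Of the transgelin counts, Tagln held 93.3% in WT cells and 94.1% in null cells. Of the calponin counts in WT, Cnn2 held 62.9%, Cnn1 26.6% and Cnn3 10.4%, and in Renin-null cells these shares were 39.6%, 30.3% and 30.1%. This order did not hold in both null libraries. In YFP1 Cnn3 held 37.8%, Cnn1 34.7% and Cnn2 27.5%, and in YFP2 Cnn2 held 54.8%, Cnn1 24.8% and Cnn3 20.4%. Rock1 held 51.8% of the counts of Rock1 and Rock2 in WT, 73.3% in YFP1 and 78.8% in YFP2. Ppp1r12a held 88.4% of the counts of the phosphatase targeting subunits in WT and 88.8% in Renin-null cells. Against the cytoplasmic actins Actb and Actg1, Acta2 held 39.8% of the actin counts in WT, 21.6% in YFP1 and 24.5% in YFP2. The counting intervals of these shares are narrower than 1 percentage point, and reads that near-identical actin copies share could be placed on either copy.

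**Figure D3:**
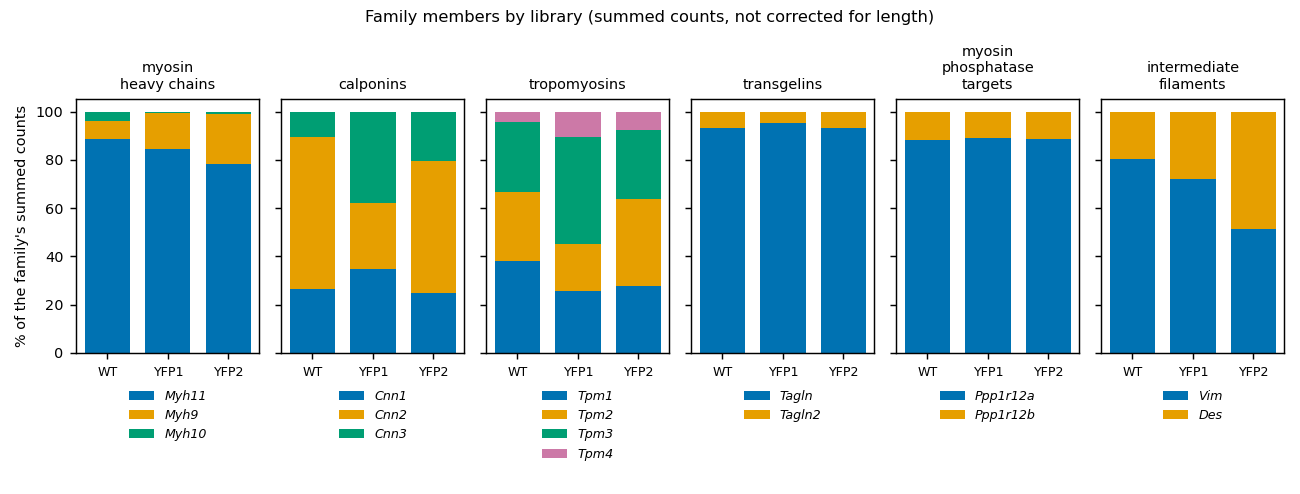
Share of each family's summed counts held by its members in the WT library and in the null libraries YFP1 and YFP2, in percent; bars add to 100 and are not corrected for transcript length. Myh9 takes a larger share of the myosin heavy chains in both null libraries (14.8% and 20.8%) than in WT (7.12%), whereas the transgelin and phosphatase bars look alike in all libraries.

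Single wells showed a different contrast from the sums. The late share of a well's counts had a median of 0.221% in WT (0.0179% to 5.54%) and 1.26% in Renin-null wells (0.00416% to 7.67%). The general share was 0.0964% (0.00416% to 3.32%) and 0.980% (0.0215% to 3.60%). The median CPM was higher in Renin-null wells for 17 of the 20 late genes and for 18 of the 20 general ones. Among the 8747 genes with at least 10 CPM in a genotype it was higher for 27.4% and lower for 13.9%, and equal for the rest. Over the wells passing the filter, the median late share was 2.59% in WT (0.632% to 5.54%) and 2.54% in Renin-null wells (0.00416% to 7.67%), and the median general share 1.71% and 1.52%. There the median CPM was higher in Renin-null wells for 6 late and 9 general genes and lower for 12 and 11, beside 35.5% higher and 27.2% lower among the 8747 genes. Taken as shares of the counts left without mitochondrial genes and Ren1, the medians over all wells were 0.549% and 1.67% for the late genes, and over the filtered wells 2.93% and 2.73%. The difference between genotypes in the median well thus went with the share of wells that were shallow or rich in mitochondrial counts, and their part in it was not tested.

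Detection depended on depth. At least 1 count was seen in a median of 85.3% of WT wells and 89.6% of Renin-null wells per late gene, and in 85.3% and 90.1% per general gene. With each well thinned to 62000 counts, which left out 2 WT and 13 Renin-null wells, the medians were 50.0% and 51.2% for late genes and 45.9% and 68.1% for general genes. Mitochondrial counts took a larger part of the thinned depth in WT wells. Acta2 was then seen in 91.8% of WT wells (interval 80.4% to 97.7%, exact binomial) and in 91.6% of Renin-null wells (83.4% to 96.5%). Myh9 was seen in 44.9% (30.7% to 59.8%) and 90.4% (81.9% to 95.8%), and Cnn3 in 14.3% (5.94% to 27.2%) and 54.2% (42.9% to 65.2%). Some members went the other way, such as Cnn2 with 69.4% (54.6% to 81.7%) and 51.8% (40.6% to 62.9%), and Cald1 with 100% (92.7% to 100%) and 89.2% (80.4% to 94.9%). Among wells passing the filter, without thinning, these gaps were smaller at 1 count or more, which most of these wells had in both genotypes. Myh9 was seen in 93.3% of WT wells (68.1% to 99.8%) and 100% of Renin-null wells (93.7% to 100%), and Cnn3 in 80% (51.9% to 95.7%) and 89.5% (78.5% to 96.04%). At 100 CPM or more, Cnn3 was seen there in 33.3% and 35.1% of wells and Myh9 in 73.3% and 84.2%. At that limit Cnn2 was seen in 73.3% of WT and 38.6% of Renin-null wells, and Cald1 in 93.3% and 84.2%. In the WT library, low counts also moved with the index a well carried. Genes held almost wholly by 1 WT well were seen in 59.7% of the other WT wells where an index was shared and in 13.8% where none was, whereas YFP1 gave 25.7% with and 25.5% without a shared index, and YFP2 30.8% with and 27.2% without. For 34 of the 40 members the median count was higher in the WT wells sharing an index with the gene's highest well, as it was for 53.8% of the genes with at least 10 CPM. Low counts in WT wells are therefore uncertain, and the part of index sharing in the ratios was not tested.

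**Figure D4:**
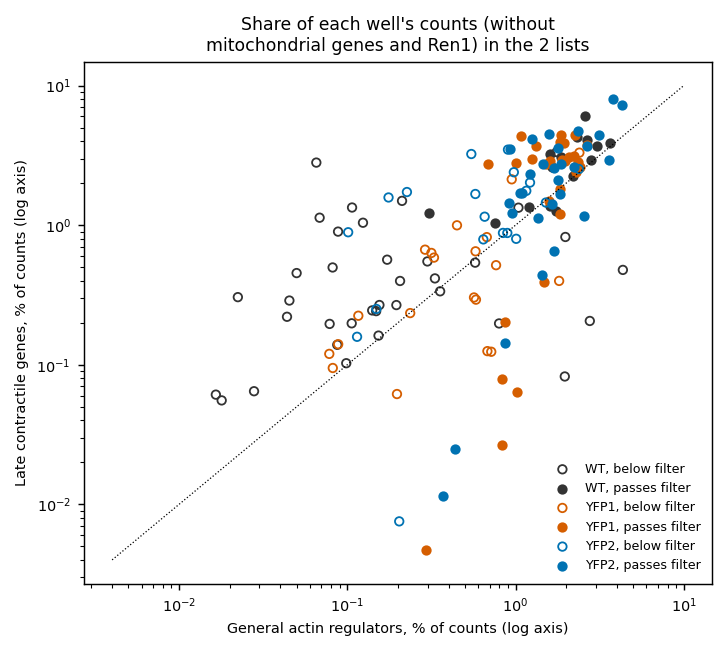
Share of each well's counts held by the general actin regulators (x axis) and by the late contractile genes (y axis), both in percent on log axes, after removal of mitochondrial genes and Ren1; filled points pass the filter and the dotted line marks equal shares. Filled points of all libraries gather at the upper right, and 11 filled null wells lie below the lowest filled WT well (1.03% late).

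The middle of the late share was spread alike in both genotypes, with quartiles, without mitochondrial genes and Ren1, of 1.36% and 3.78% in the 15 WT wells passing the filter and 1.21% and 3.59% in the 57 Renin-null ones. The lowest wells were Renin-null, which had more wells to draw from. Of the 57 passing the filter, 11 had a late share below the 1.03% of the lowest WT well passing the filter. In 6 of these 11, late genes were under 10% of the counts of both lists. The 3 lowest were YFP1 well 19 with 0.00472%, YFP2 well 72 with 0.0115% and YFP2 well 51 with 0.0250%, each still with a general share of 0.292% to 0.434%. Markers of other kidney cell types were summed in the same wells. Proximal tubule markers reached 32767 CPM in YFP1 well 19, 40152 CPM in YFP2 well 72 and 16638 CPM in YFP2 well 69. Podocyte markers reached 19151 CPM in YFP2 well 59, loop and distal tubule markers 3621 CPM in YFP1 well 23, macrophage markers 1044 CPM in YFP1 well 36 and endothelial markers 8646 CPM in YFP2 well 83. The other 4 low wells had none of these lists at 1000 CPM. Of the 46 remaining null wells passing the filter, 9 had such a list at 1000 CPM or more. Akr1b7, a marker of renin cells, was below 10 CPM in 8 of the 11.

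The whole marker lists moved with genotype as follows, in summed CPM. Counts of markers at least 2-fold higher or lower stand beside the background of 52.4% of all genes higher and 18.5% lower. The 7 proximal tubule markers had 201 CPM in WT, 2312 CPM in YFP1 and 1325 CPM in YFP2, with most counts on Gpx3, 7 of 7 at least 2-fold higher in Renin-null cells and Slc5a2 at 0 in WT. The 5 podocyte markers had 12.6, 42.9 and 1124 CPM, led by Cdkn1c, with 5 of 5 at least 2-fold higher, and Podxl at 0 in WT. The 6 fibroblast markers had 173, 440 and 1758 CPM, led by Col3a1, with 5 of 6 higher. The 6 endothelial markers had 36.8, 28.8 and 382 CPM, led by Emcn, with 5 of 6 higher and Cdh5 and Tek at 0 in WT. The 5 loop and distal tubule markers had 0.515, 189 and 43.0 CPM, led by Slc12a1, with 4 of 5 higher and Pvalb at 0 in both genotypes. The 4 collecting duct markers had 10.1, 2.96 and 81.4 CPM, led by Aqp2, with 2 higher and 1 lower. The 6 macrophage markers stayed low, at 0.985, 4.53 and 4.21 CPM, led by Ptprc, with 4 of 6 higher and Cd68, C1qa, C1qb and Lyz2 at 0 in WT. The 7 pericyte and mural markers, led by Rgs5, had 12404, 13929 and 15622 CPM, with 2 higher and 2 lower and Kcnj8 at 0 in WT. The 3 renin cell markers had 101528, 1701 and 2462 CPM, with 3 of 3 lower. In WT this list was led by Ren1, with 9.60% of all counts. Ren1 is the deleted gene, with 54 counts in all Renin-null wells, so its fall and most of that of the list were set by the genotype. How far these cells or transcripts bear on the members' ratios was not tested. Leaving out the 1 WT and 27 Renin-null wells in which an endothelial, tubule, collecting duct, podocyte or macrophage list summed to at least 1000 CPM gave a median log2 ratio of 0.35 for the late genes and 0.11 for the general ones, with 8 members at least 2-fold higher (background 52.5%) and 4 lower (background 20.5%).

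Within the WT wells passing the filter, the late share was lower where Ren1 was higher. The 2 wells with most Ren1, at 313965 and 295210 CPM, had late shares of 1.03% and 1.26% of the counts left without mitochondrial genes and Ren1, and Myh11 at 5.59 and 1.25 CPM. The 2 wells with least Ren1, at 674 and 1149 CPM, had late shares of 3.88% and 3.07% and Myh11 at 3968 and 8001 CPM. Acta2 was less divided, at 3800 and 637 CPM in the former and 6984 and 1281 CPM in the latter. Across the 15 wells the late share had a Spearman rho of -0.64 with Ren1, of -0.61 with Akr1b7 and of -0.65 with the summed proximal tubule markers, as a description of wells of 1 library. The rho with Ren1 was negative for 17 of the 19 late genes with a WT count and for 13 of the 20 general ones, beside 46.1% of 8328 genes with at least 10 CPM in a genotype and a count in these wells. Over all 51 WT wells the late share had a rho of 0.25 with Ren1 and of 0.64 with depth, and the rho with Ren1 was negative for 6 late and 6 general genes (29.9% of 8423 genes), so the sign depended on the wells used. The part of the tubule markers in these relations was not tested. In Renin-null wells passing the filter, where Ren1 is deleted, the late share had a rho of 0.27 with Akr1b7 (57 wells).

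Among wells passing the filter, members of the late list were more alike from well to well than members of the general list. Across the 57 Renin-null wells passing the filter, the median Spearman rho between pairs was 0.31 within the late list, 0.10 within the general list and 0.16 between them, over the 37 members seen in at least 50% of the wells. Across the 15 WT wells the medians were 0.31, 0.20 and 0.23. Over all 96 Renin-null wells the medians lay closer together, at 0.33, 0.28 and 0.26, and over all 51 WT wells they were 0.55, 0.42 and 0.48. The highest pairs in Renin-null wells were Myh11 with Myl9 (0.72), Tagln with Myh11 (0.69) and Acta2 with Tagln (0.67), the motor, its light chain and the filament genes. Of the 57 Renin-null wells, 16 held markers of another cell type at 1000 CPM or more. Their median late share, without mitochondrial genes and Ren1, was 1.31%, against 2.79% in the rest. The part of these wells in the relations was not tested. Wells share a library, and CPM of a well share a total, so these values describe the wells and carry no p-value.

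**Figure D5:**
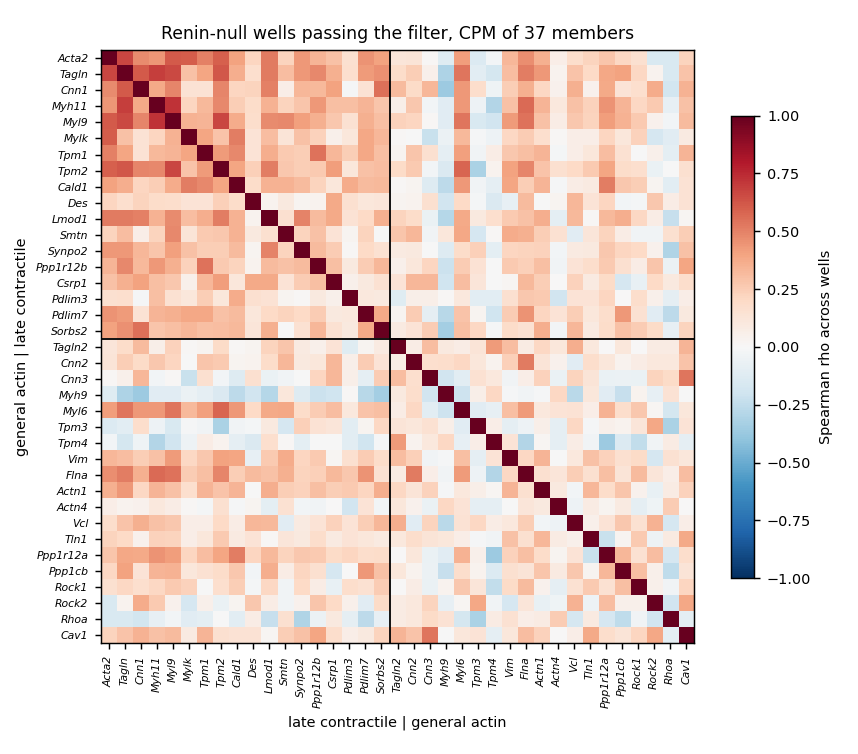
Spearman rho of CPM between 37 members across the 57 Renin-null wells passing the filter; black lines divide late contractile genes (upper left block) from general actin regulators (lower right block), red is positive and blue is negative. The block of Acta2, Tagln, Cnn1, Myh11, Myl9 and Tpm2 is the reddest, and Myh9 and Tpm4 are pale or blue against it.

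Other genes of the pathway, from lists that the values of these cells did not trim, put the members in context. Pairs of CPM are given for WT and then Renin-null cells, and counts stand beside the background of 52.4% of all genes at least 2-fold higher and 18.5% lower. Of 9 regulators of the smooth muscle programme, 3 (33.3%) were at least 2-fold higher and 3 (33.3%) lower in the latter (median log2 ratio -0.17, or -0.45 with YFP1 and 0.20 with YFP2). Mef2c had most counts, at 1246 and 1108 CPM, Tead1 had the highest ratio (16.1 and 218 CPM, 3.76, with 94.1% of the WT counts in 1 well) and Srf, the factor of the CArG box, the lowest (26.4 and 6.27 CPM, -2.07, with 97.1% in 1 well). Myocd (myocardin, its smooth muscle partner), named after its values were seen, had 150 and 101 CPM. Of 16 other actins and myosins, 13 had a ratio, of which 7 (53.8%) were higher and 4 (30.8%) lower (median 1.16). Actb, the main cytoplasmic actin, had 5388 and 12065 CPM, a ratio of 1.16. The lowest ratio of the list was that of Myh6, a cardiac myosin heavy chain, at 583 and 0.0226 CPM, the latter from 9 counts. Mylk2, the skeletal muscle kinase, had 0 and 14.6 CPM.

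Of 21 genes of actin dynamics, 6 (28.6%) were higher and 2 (9.52%) lower (median 0.43). With the mean over wells of CPM 14 were higher and 1 lower (median 1.36, background 61.2% and 14.7%). With median-of-ratios factors 5 were higher and 7 lower (median -0.41, background 41.4% and 29.7%). Dstn (destrin, which severs filaments) led at 1290 and 1473 CPM, Ezr (ezrin) had the highest ratio, 3.94 (3.74 and 57.6 CPM), and Arpc1b of the Arp2/3 complex the lowest, -2.07 (30.6 and 7.27 CPM). Of 15 genes of small GTPase signalling, 7 (46.7%) were higher and 2 (13.3%) lower (median 0.98), with most counts on Arhgef12 (233 and 297 CPM), Cit at the top (0.288 and 43.1 CPM, 7.23) and Diaph1, a formin, at the bottom (141 and 21.2 CPM, -2.74). The median of this list was 0.45 with YFP1 alone, 0.87 with YFP2 alone, 0.27 with TMM factors and 0.14 with median-of-ratios factors. Without the highest well it was 1.66. Of 20 adhesion, LIM and Z-line genes, 9 (45%) were higher and 1 (5%) lower (median 0.80). Scaled by TMM factors 5 were higher and 5 lower (median 0.09, background 43.1% and 27.2%). With median-of-ratios factors 4 were higher and 6 lower (median -0.04, background 41.4% and 29.7%). With SCTransform-corrected counts 15 of 19 were higher and 0 lower (background 64.1% and 12.8%). Lpp led at 1509 and 1210 CPM, Svil (supervillin) had the highest ratio, 10.47 (12 counts in WT, all in 1 well, and 85.9 CPM in Renin-null cells), and Zyx (zyxin) the lowest (125 and 54.7 CPM, -1.20, with 88.6% of the WT counts in 1 well).

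Of 6 caveola genes, 1 (16.7%) was higher and 1 (16.7%) lower (median 0.28). Cavin1 led at 2698 and 3130 CPM, Cavin2 had no WT count and 17.5 CPM in Renin-null cells, and Cav3, the muscle caveolin, had 12.3 CPM in WT and no count in Renin-null cells. Of 10 genes of relaxation and calcium release, 2 (20%) were higher and 2 (20%) lower (median 0.08). This balance did not hold in other settings, with 0 higher and 4 lower in wells passing the filter (median -0.66), 3 and 2 with YFP1 (median -0.11) and 0 and 6 with YFP2 (median -1.07). Scaled by TMM factors, the medians of the lists of relaxation, actin dynamics and caveolae were all negative, at -0.62, -0.27 and -0.42. Mrvi1, a target of cGMP-dependent kinase, had both most counts and the lowest ratio (1082 and 179 CPM, -2.60), and Gucy1b1, a subunit of the nitric oxide receptor, had the highest ratio, 1.27 (75.02 and 181 CPM).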

How the data were processed

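Single YFP-positive cells were profiled in 51 WT and 96 Renin-null wells. The authors trimmed reads with Trimmomatic 0.39, checked them with FastQC 0.11.5, quantified them with Salmon 0.11.2 on GRCm38.p6 and summed transcripts to genes with tximport (lengthScaledTPM), so the deposited values are expected counts for 35438 genes, not scaled for depth. The tool versions come from the submitters' processing notes. No doublet caller was run here.

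Counts were rounded, summed per genotype and scaled to CPM. Where a genotype had no count, 3 counts over all its wells took its place, and genes with 3 counts or fewer in each genotype got no ratio. Log2 ratios have exact conditional 95% intervals and shares of wells Clopper-Pearson intervals. Both cover counting error only, since PCR copies carry no molecular identifier. With 1 sample per genotype no test was run. The ratio was tested on simulated data with known folds. These were Poisson counts drawn from a single pooled profile at the depths of the wells. They had no spread between cells, so they checked the calculation only. Lengths and coordinates are from GENCODE M21 (GRCm38), as the median over principal protein-coding transcripts. Pathway genes named are the most abundant and those with the highest and lowest ratio among genes with at least 10 CPM in a genotype; all 40 members are named. The members and lists were chosen with earlier results of these data known.

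Alternatives were other ways to combine wells, other scalings (edgeR 4.0.16 TMM, median-of-ratios size factors, CPM without mitochondrial genes, SCTransform in Seurat 5.3.0 with sctransform 0.4.2), single libraries, and filters on wells and genes. Leaving out wells with markers of another cell type, and shares in filtered wells or without mitochondrial genes and Ren1, were added after seeing the data. Correlation across genes reached 0.974 or more in 4 pairs of null wells (next 0.896), and an alternative counted each pair once. Python 3.11.15, numpy 2.4.6, pandas 2.3.3, scipy 1.17.1, matplotlib 3.10.9 and R 4.3.3 were used.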

Additional observations from a re-analysis of the deposited data

How the results depend on the processing

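No paired analysis was possible because well numbers name wells and no test was run between genotypes. No member counted as at least 2-fold higher or lower changed sign under any of its alternatives. Synpo2, Cnn3 and Vcl stayed past 2-fold in all 13 alternatives and Csrp1 and Myh10 in 12; Des, Pdlim3 and Rock2 did in 9, Tpm4 in 8 and Actg2 in 10 of its 11.

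The median log2 ratio depended on how wells were combined and scaled, for the late genes (0.22) and the general genes (0.05) in turn. It was 0.98 and 0.69 with the mean over wells of CPM, 1.32 and 1.64 as the difference of mean log2(CPM + 1), 1.54 and 1.37 with SCTransform-corrected counts, -0.49 and -0.66 with TMM factors, and -0.62 and -0.79 with median-of-ratios size factors. It was 0.055 and -0.11 without mitochondrial genes and -0.13 and -0.30 without these and Ren1. It was -0.035 and -0.12 with YFP1 alone, 0.36 and 0.13 without the highest well, -0.22 and -0.19 in wells passing the filter, and 0.35 and 0.11 without wells holding markers of another cell type. YFP2 alone gave 0.15 for the general genes, and the 10 core contractile genes gave -0.0068. The late median less the general one (0.17) was -0.31 as the difference of mean log2(CPM + 1), 0.023 with YFP2 alone, -0.024 in wells passing the filter and -0.053 for the core genes. With the all-gene median moved from 1.17 to 0.47 by TMM and to 0.33 by median-of-ratios factors, the medians of both lists lay below it, as they did with SCTransform (1.86) and the mean over wells (1.75). As the difference of mean log2(CPM + 1) both lay above it (0.13, or 0.41 among genes with at least 10 CPM).

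Members at least 2-fold higher (7) numbered 16 with the mean over wells, 30 by mean log2, 4 with median-of-ratios factors and 27 with SCTransform, where 61.2%, 9.03%, 41.4% and 64.1% of all genes did so. Those at least 2-fold lower (3) numbered 1, 1, 14 and 1 in that order, beside 14.7%, 1.9%, 29.7% and 12.8% of all genes, and 13 with TMM, beside 27.2%. The SCTransform count of 27 was made up of 16 of the 19 late genes with a value and 11 of the 20 general genes. The causes were not tested.

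The median share of wells with a count was 85.3% in WT and 89.6% in Renin-null cells for late genes, and 85.3% and 90.1% for general genes. Thinned to equal depth these were 50.0%, 51.2%, 45.9% and 68.1%. At 10 counts or more they were 46.1%, 51.6%, 47.1% and 62.5%, and at 100 CPM or more 20.6%, 30.2%, 23.5% and 44.3%. In wells passing the filter they were 96.7%, 92.98%, 93.3% and 98.2% for 1 count, and 56.7%, 36.8%, 63.3% and 57.9% at 100 CPM, where WT was the higher for both lists. The late share of a well, 0.221% in WT and 1.26% in Renin-null cells, was 2.59% and 2.54% in wells passing the filter, 2.93% and 2.73% there without mitochondrial genes and Ren1, and 0.549% over all WT wells without these. The general share, 0.0964% and 0.980%, was 1.71% and 1.52%, then 1.86% and 1.66%. These share and well-filter settings were chosen after seeing the data.

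With 1 sample per genotype, the spread between mice is unknown, and every interval covers counting error only. The genotype ratio was larger in size than the difference between the null libraries for 9 of 20 late and 7 of 20 general genes. The background was 51.3% of all genes with both values and 57.2% of those with at least 10 CPM in a genotype.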
